A study of Mus musculus with 16 samples.

Results

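The serotonin receptor genes followed here, in bulk RNA-seq of dorsal hippocampus from mice, were Htr1a, Htr1b, Htr1f, Htr2a, Htr2c, Htr3a, Htr4, Htr5a, Htr5b and Htr7. They are 10 of the 55385 Ensembl identifiers counted, and were found by matching identifiers to mouse gene symbols. All 10 passed the filter on low counts, as did 16899 genes in all. The list was drawn up with earlier results of these data known, and Htr2a, which heads it, was selected on its difference in level between Dnmt3a2 and control tissue. That difference is therefore described without a p-value, and calls are counted over the other 9. The other 9 are given with the result of a fit over all genes, which is no independent support for the choice.

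Mice had received a recombinant adeno-associated virus in the dorsal hippocampus that carried either exogenous Dnmt3a2, a shorter form of Dnmt3a, which sets new DNA methylation, or GFP as the control. They were trained in contextual fear conditioning 3 weeks later, and hippocampal tissue was taken 1 day or 5 days after training. The 4 groups, Dnmt3a2_1d, Control_1d, Dnmt3a2_5d and Control_5d, held 4 libraries each, 16 in all. Every group was injected and conditioned, so none shows the untrained or the uninjected state. The promoter of the virus, the cells it reached, and the mice's strain, sex and age were not stated in these sources. The labels do not say that each library came from a separate animal, and the p-values measure the spread between these libraries.

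Serotonin reaches the hippocampus through axons of raphe neurons in the brainstem, so the transmitter is made elsewhere while its receptors are made by hippocampal cells. The receptors fall into families by the way they signal. Members of the 5-HT1 family couple to inhibitory Gi/o proteins, those of the 5-HT2 family couple to Gq and phospholipase C, and 5-HT4, 5-HT6 and 5-HT7 couple to Gs and adenylyl cyclase. The 5-HT3 receptor is an ion channel. Levels below are CPM, counts scaled to a common library size. At total estimated counts of 28.6 to 30.0 M per library, Htr2a rested on 262 to 661 estimated counts in each library and Htr1f, the lowest receptor, on 26 to 87.

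The delivered gene was read in every Dnmt3a2 library. Dnmt3a was at 623.2 to 1249 CPM in the 8 Dnmt3a2 libraries and at 32.7 to 37.7 CPM in the 8 control libraries. Markers of dentate granule, CA1 and CA3/CA2 neurons were present throughout, with none of the 10, 8 and 12 genes on those lists below a mean of 0.1 CPM. Dnmt3a2_1d replicate 1 and Dnmt3a2_5d replicate 1 stood apart in choroid plexus transcripts, with Ttr, the transthyretin of choroid plexus, at 773.3 and 1253 CPM. Ttr was at 5.51 to 157 CPM in the other 14 libraries. The same 2 libraries and Control_1d replicate 1 were rich in interferon response transcripts. These libraries are left out in turn wherever a call rests on them.

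Htr2a (ENSMUSG00000034997, chromosome 14, 74640840 to 74709494, plus strand, GRCm38), the 5-HT2A receptor and main target of psychedelic drugs, was the receptor whose mRNA differed most between the viruses. At 1 day it was at 17.9, 20.4, 18.7 and 13.4 CPM in the Dnmt3a2_1d libraries, against 11.4, 10.5, 11.3 and 9.12 CPM in the Control_1d libraries. At 5 days it was at 16.7, 21.8, 21.4 and 21.8 CPM in the Dnmt3a2_5d libraries, against 12.1, 13.1, 9.22 and 10.99 CPM in the Control_5d libraries. Every Dnmt3a2 library lay above every control library, across both days, as did those of 0.183% of all genes tested. The lowest Dnmt3a2 library, Dnmt3a2_1d replicate 4, was at 13.4 CPM and the highest control, Control_5d replicate 2, at 13.1 CPM, so the gap between the viruses was narrow at that point. Group means were 17.6 ± 3.00 CPM in Dnmt3a2_1d and 10.6 ± 1.04 CPM in Control_1d (SD, n = 4 each), and 20.4 ± 2.46 CPM in Dnmt3a2_5d and 11.4 ± 1.68 CPM in Control_5d (SD, n = 4 each). The log2 fold change was 0.73 (SE 0.13) at 1 day and 0.84 (SE 0.13) at 5 days. Over 26 alternative settings at each day it stayed between 0.65 and 0.84 at 1 day and between 0.75 and 0.93 at 5 days.

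Within Dnmt3a2_1d the libraries ranked only partly alike in Htr2a and in the delivered gene. Replicates 2 and 3 were above replicates 1 and 4 in both, with 1096 and 1153 CPM of Dnmt3a and 20.4 and 18.7 CPM of Htr2a. Dnmt3a2_1d replicate 1 had the least Dnmt3a, 623.2 CPM, and 17.9 CPM of Htr2a. Dnmt3a2_1d replicate 4 had 982.3 CPM of Dnmt3a and the least Htr2a of the Dnmt3a2 libraries, 13.4 CPM. Within Dnmt3a2_5d they ranked nearly alike. Replicate 1 had the least of both, with 1015 CPM of Dnmt3a and 16.7 CPM of Htr2a. Replicate 3 came next in both, with 1136 CPM of Dnmt3a and 21.4 CPM of Htr2a, and replicates 2 and 4 had 1249 and 1244 CPM of Dnmt3a and 21.8 CPM of Htr2a each.

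**Figure D1:**
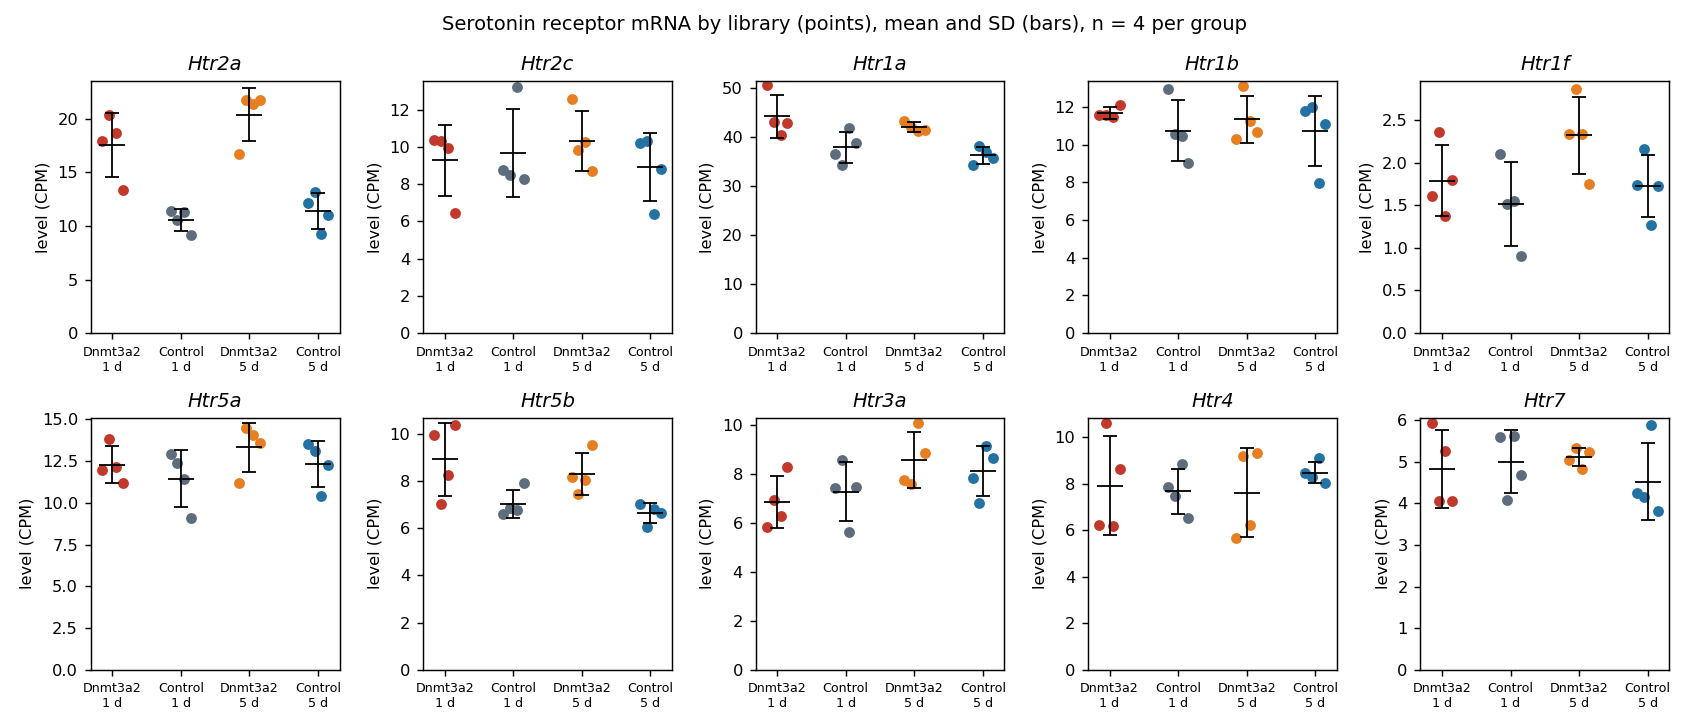
Level of each receptor mRNA in CPM (vertical axis, from 0) in the 4 groups of libraries, with 1 point per library and bars for mean and SD (n = 4 per group). For Htr2a all 8 Dnmt3a2 libraries, 13.4 to 21.8 CPM, lie above all 8 control libraries, 9.12 to 13.1 CPM, while for most other receptors the groups overlap.

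Because the delivered enzyme methylates cytosines that precede guanine, the sequences around the starts of Htr2a, of Htr1a and, as a contrast, of Htr7 are shown. Each runs from 250 bases before to 50 after the RefSeq gene start on GRCm38.p6, with each CG in capitals. No methylation was measured here.
Htr2a, chr14:74640624-74640923, plus strand: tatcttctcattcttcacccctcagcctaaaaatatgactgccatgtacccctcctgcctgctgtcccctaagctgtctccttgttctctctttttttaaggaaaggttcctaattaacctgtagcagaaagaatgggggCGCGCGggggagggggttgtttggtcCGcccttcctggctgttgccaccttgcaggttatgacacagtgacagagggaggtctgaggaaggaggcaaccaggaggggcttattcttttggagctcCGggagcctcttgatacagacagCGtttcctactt
Htr1a, chr13:105443443-105443742, plus strand: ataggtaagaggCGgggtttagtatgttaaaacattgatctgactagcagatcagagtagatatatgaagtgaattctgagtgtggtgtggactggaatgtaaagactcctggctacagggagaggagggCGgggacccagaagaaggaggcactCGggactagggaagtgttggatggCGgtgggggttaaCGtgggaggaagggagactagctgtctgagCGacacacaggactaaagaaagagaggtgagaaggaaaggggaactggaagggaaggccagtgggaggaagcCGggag
Htr7, chr19:36057311-36057610, minus strand: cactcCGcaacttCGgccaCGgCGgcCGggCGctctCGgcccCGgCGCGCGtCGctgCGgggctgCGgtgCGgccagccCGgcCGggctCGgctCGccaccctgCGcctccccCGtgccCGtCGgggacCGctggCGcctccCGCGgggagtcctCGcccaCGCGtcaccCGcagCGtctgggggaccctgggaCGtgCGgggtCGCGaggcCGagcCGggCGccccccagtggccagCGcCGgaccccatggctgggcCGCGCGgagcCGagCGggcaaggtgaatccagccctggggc
A search for CG, which reads the same on both strands, found 6 in the Htr2a window, 7 in the Htr1a window and 46 in the Htr7 window. Of 32851 promoter windows of this length, 56.4% held at least 6, 52.1% at least 7 and 1.65% at least 46, and the median was 7. RefSeq windows were at hand for 7 of the 10 receptor genes, and the other 4 held 14 (Htr5a), 13 (Htr1f), 11 (Htr1b) and 5 (Htr2c) CG.

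Htr2c (ENSMUSG00000041380, chromosome X, 146962513 to 147197277), the other Gq-coupled receptor here, is known for high expression in choroid plexus and is subject to RNA editing. It did not pass the test at either day. Its level was 10.3, 10.3, 9.95 and 6.45 CPM in Dnmt3a2_1d, against 8.73, 8.46, 13.2 and 8.29 CPM in Control_1d. At 5 days it was 12.5, 9.81, 10.2 and 8.71 CPM in Dnmt3a2_5d, against 10.2, 10.3, 6.41 and 8.80 CPM in Control_5d. The groups overlapped at both days, with a log2 fold change of -0.06 (SE 0.19, edgeR adjusted p = 0.98) at 1 day and of 0.21 (SE 0.19, edgeR adjusted p = 0.879) at 5 days.

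The 2 libraries rich in choroid plexus transcripts were each the highest of their group in Htr2c, within the range of the other libraries. With Ttr at 773.3 CPM, Dnmt3a2_1d replicate 1 had 10.34 CPM of Htr2c, and replicate 2 had 10.31 CPM. With Ttr at 1253 CPM, Dnmt3a2_5d replicate 1 had 12.5 CPM. The highest library of all in Htr2c, Control_1d replicate 3 at 13.2 CPM, had 9.93 CPM of Ttr, and the lowest, Control_5d replicate 3 at 6.41 CPM, had 157 CPM of Ttr. Averaged over the days, the Htr2c log2 fold change was 0.07. Settings other than leaving out 1 library, among them that without the choroid-rich pair, gave -0.03 to 0.08. The part of choroid plexus in the Htr2c level was not tested.

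**Figure D2:**
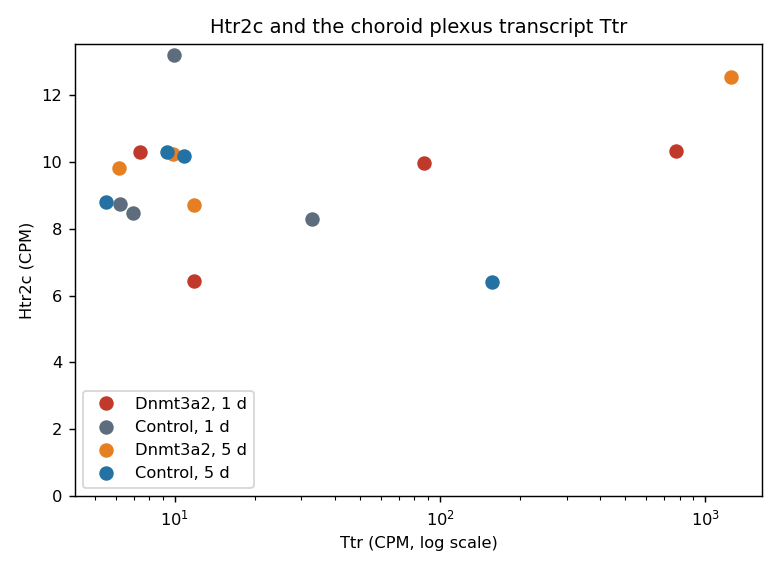
Htr2c level (CPM, vertical axis from 0) against Ttr level (CPM, log horizontal axis) in each of the 16 libraries, coloured by group. The 2 libraries at 773.3 and 1253 CPM of Ttr hold 10.3 and 12.5 CPM of Htr2c, within the 6.41 to 13.2 CPM spanned by the others.

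Among the Gi/o-coupled receptors, Htr1a (ENSMUSG00000021721, chromosome 13, 105443639 to 105448122), the 5-HT1A receptor that opens potassium channels in pyramidal neurons, was the most abundant receptor mRNA and was modestly higher with Dnmt3a2. At 1 day it was at 50.5, 43.0, 40.2 and 42.7 CPM in Dnmt3a2_1d, against 36.4, 34.3, 41.7 and 38.7 CPM in Control_1d. The groups overlapped there through Control_1d replicate 3. The 5-day levels were 43.2, 42.0, 41.0 and 41.3 CPM in Dnmt3a2_5d, against 34.1, 38.1, 36.9 and 35.7 CPM in Control_5d, with no overlap. The log2 fold change was 0.22 (SE 0.07, edgeR adjusted p = 0.398) at 1 day and 0.21 (SE 0.07, edgeR adjusted p = 0.339) at 5 days, neither past the threshold of 0.05. Averaged over the days, Htr1a rose by 0.22 (SE 0.05, edgeR adjusted p = 0.0326), and 8 of 8 Dnmt3a2 libraries lay above the control mean. This call ended on leaving out any 1 of Dnmt3a2_1d replicate 1, Dnmt3a2_5d replicates 2, 3 and 4, Control_1d replicates 1 and 2, and Control_5d replicates 1 and 4 (edgeR adjusted p = 0.0511 to 0.0789, log2 fold change 0.18 to 0.22). Omitting both choroid-rich libraries (edgeR adjusted p = 0.0727) or the 3 interferon-rich ones (edgeR adjusted p = 0.104) likewise ended it, and the highest Htr1a library, Dnmt3a2_1d replicate 1, is in both sets.

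Htr1b (ENSMUSG00000049511, chromosome 9, 81628291 to 81633828), a release-inhibiting autoreceptor and heteroreceptor on axon terminals, averaged 11.7 ± 0.302 CPM in Dnmt3a2_1d and 10.8 ± 1.64 CPM in Control_1d, and 11.4 ± 1.25 CPM in Dnmt3a2_5d and 10.7 ± 1.86 CPM in Control_5d (SD, n = 4 each). Its fold changes were within their errors at 1 day (log2 0.12, SE 0.12) and at 5 days (log2 0.08, SE 0.12). Its counts are uncertain, since it shares 852 exon bases with the antisense gene D430036J16Rik (mean 1.52 CPM) and no source used here says whether reads were assigned by strand. Of the stretches of 31 bases in its transcripts, 18.2% also occurred in transcripts of other genes, against at most 0.281% for the other 9 receptors, and no such stretch was shared between the receptors.

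Htr1f (ENSMUSG00000050783, chromosome 16, 64924729 to 65105854), the receptor that migraine drugs of the ditan class act on, was the scarcest of the 10. It was at 1.61, 2.36, 1.38 and 1.80 CPM in Dnmt3a2_1d, against 2.11, 1.52, 1.55 and 0.902 CPM in Control_1d. At 5 days it was at 2.34, 2.86, 2.34 and 1.75 CPM in Dnmt3a2_5d, against 1.74, 2.16, 1.27 and 1.73 CPM in Control_5d. The groups overlapped at both days, and its log2 fold changes had the largest errors of the 10, with 0.23 (SE 0.25) at 1 day and 0.43 (SE 0.24, edgeR adjusted p = 0.723) at 5 days.

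The 5-HT5 receptors are the least understood of the family, and the gene for 5-HT5B is not functional in humans. Htr5b (ENSMUSG00000050534, chromosome 1, 121509842 to 121528465) was at 9.96, 7.05, 8.27 and 10.4 CPM in Dnmt3a2_1d, against 6.59, 6.88, 6.77 and 7.91 CPM in Control_1d. The 5-day levels were 8.19, 7.47, 8.04 and 9.55 CPM in Dnmt3a2_5d, against 7.05, 6.04, 6.83 and 6.65 CPM in Control_5d. Only the 5-day groups did not overlap. The log2 fold change was 0.34 (SE 0.12, edgeR adjusted p = 0.431) at 1 day and 0.32 (SE 0.12, edgeR adjusted p = 0.418) at 5 days. Averaged over the days it rose by 0.33 (SE 0.08, edgeR adjusted p = 0.0485), with 8 of 8 Dnmt3a2 libraries above the control mean. That value lies at the threshold: leaving out 1 library ended the call for 14 of the 16 libraries, all but Dnmt3a2_1d replicate 2 and Control_1d replicate 4 (edgeR adjusted p = 0.052 to 0.133, log2 fold change 0.29 to 0.36). So did omitting the choroid-rich pair (edgeR adjusted p = 0.0985) or the interferon-rich libraries (edgeR adjusted p = 0.141). Htr5a (ENSMUSG00000039106, chromosome 5, 27842149 to 27855088) averaged 12.3 ± 1.11 CPM in Dnmt3a2_1d and 11.4 ± 1.69 CPM in Control_1d, and 13.3 ± 1.47 CPM in Dnmt3a2_5d and 12.3 ± 1.39 CPM in Control_5d (SD, n = 4 each). Its averaged log2 fold change was 0.11 (SE 0.08, edgeR adjusted p = 0.642).

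The Gs-coupled receptors did not pass the test. Htr4 (ENSMUSG00000026322, chromosome 18, 62324204 to 62496577), a receptor known to raise excitability of hippocampal neurons, was at 6.22, 10.6, 6.17 and 8.63 CPM in Dnmt3a2_1d, against 7.84, 7.48, 8.86 and 6.52 CPM in Control_1d. At 5 days it was at 5.68, 9.18, 6.24 and 9.31 CPM in Dnmt3a2_5d, against 8.45, 8.30, 9.08 and 8.01 CPM in Control_5d. At both days replicates 2 and 4 of the Dnmt3a2 groups were high and replicates 1 and 3 low, while the controls were closer together, with SDs of 2.13 and 1.91 CPM in Dnmt3a2_1d and Dnmt3a2_5d and 0.966 and 0.455 CPM in Control_1d and Control_5d. Its averaged log2 fold change was -0.06 (SE 0.12, edgeR adjusted p = 0.897). Htr7 (ENSMUSG00000024798, chromosome 19, 35958734 to 36057507) averaged 4.83 ± 0.935 CPM in Dnmt3a2_1d and 5.00 ± 0.755 CPM in Control_1d, and 5.12 ± 0.219 CPM in Dnmt3a2_5d and 4.52 ± 0.924 CPM in Control_5d (SD, n = 4 each). Its averaged log2 fold change was 0.07 (SE 0.11, edgeR adjusted p = 0.863).

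Htr3a (ENSMUSG00000032269, chromosome 9, 48899213 to 48911099), the channel-forming subunit found in a class of interneurons, averaged 6.84 ± 1.06 CPM in Dnmt3a2_1d and 7.27 ± 1.21 CPM in Control_1d, and 8.57 ± 1.15 CPM in Dnmt3a2_5d and 8.11 ± 1.03 CPM in Control_5d (SD, n = 4 each). The groups overlapped at both days, and the averaged log2 fold change was -0.00 (SE 0.10, edgeR adjusted p = 0.991).

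Of the 9 receptors other than Htr2a, 0 passed an edgeR adjusted p of 0.05 at 1 day, where 0.0888% of all genes tested did, and 0 at 5 days, where 0.32% did. At each day 2 of the 9, Htr1a and Htr5b, had an unadjusted p under 0.05, and DESeq2 and limma-voom called 0 of the 9. Averaged over the days 2 of the 9 passed, Htr1a and Htr5b, both higher, where 1.43% of all genes did. DESeq2 called both, and limma-voom called Htr1a alone. The list was drawn up with these contrasts known, so nothing is read from the counts. At 1 day the groups did not overlap for Htr2a alone, against 3.43% of all genes, and at 5 days for Htr2a, Htr1a and Htr5b, against 6.29% of all genes. For 6 of the 9 other receptors the fold change was above 0 at 1 day, where 50.9% of all genes lay above 0. At 5 days it was above 0 for 8 of the 9, where 52.8% of all genes did. Medians of the 9 were 0.10 and 0.18 on the log2 scale, where the medians of all genes were 0.00 and 0.01. Without the choroid-rich or the interferon-rich libraries, none of the 9 passed averaged over the days.

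**Figure D3:**
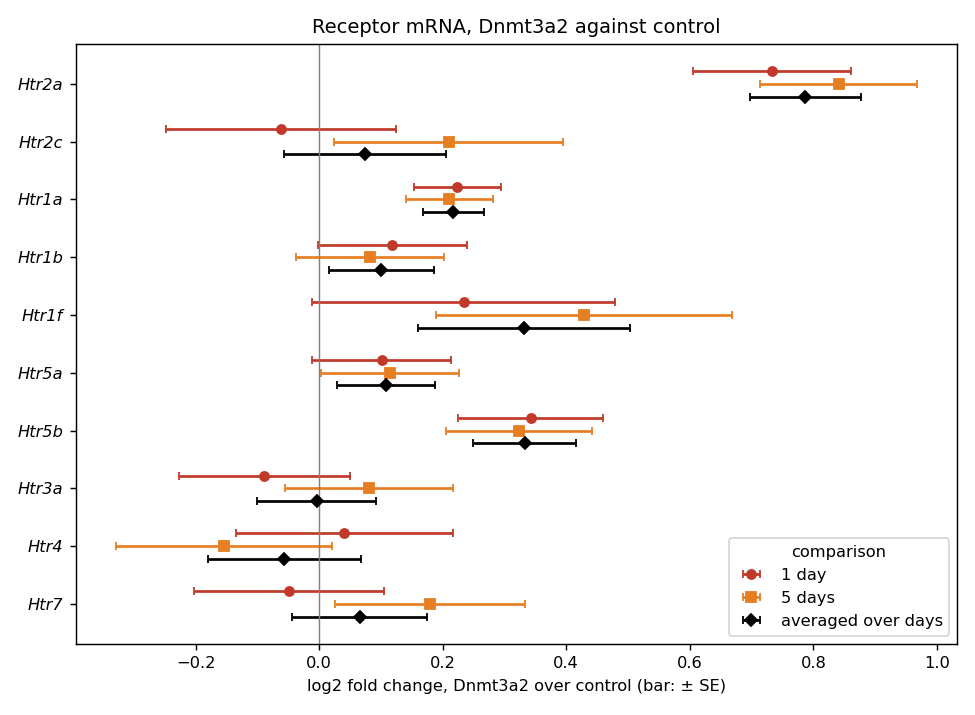
Log2 fold change of each receptor mRNA, Dnmt3a2 over control (horizontal axis, bars ± SE), at 1 day, at 5 days and averaged over the days. Htr2a stands at 0.73 and 0.84 at 1 and 5 days, Htr1a and Htr5b lie at 0.21 to 0.34, and the others have errors that reach 0 at 1 or both days.

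Levels were also compared between 5 days and 1 day, on a list drawn up with earlier results of these libraries known. In Dnmt3a2 tissue 0 of 10 receptors differed between 5 days and 1 day in edgeR, as did 0 of 16899 genes (0%), with 1822 genes at an unadjusted p under 0.05. DESeq2 called 44 genes there, none of them a receptor. In control tissue 0 of 10 receptors and 0 of 16899 genes (0%) were called, with 598 genes at an unadjusted p under 0.05, and DESeq2 also called 0. Htr2a was higher at 5 days by 0.21 (SE 0.12, edgeR adjusted p = 0.559) in Dnmt3a2 and by 0.10 (SE 0.13, edgeR adjusted p = 0.999) in control tissue, neither past the threshold. The smallest p among the receptors was that of Htr3a in Dnmt3a2 tissue, at 0.32 (SE 0.14, edgeR adjusted p = 0.408), with 7.76, 7.60, 10.1 and 8.84 CPM in Dnmt3a2_5d and 5.84, 6.94, 6.30 and 8.28 CPM in Dnmt3a2_1d. The effect of Dnmt3a2 on Htr2a differed between 5 days and 1 day by 0.11 (SE 0.18, edgeR adjusted p = 1), and 0 of 10 receptors and 0 of 16899 genes (0%) passed this test of the difference, with 360 genes at an unadjusted p under 0.05 and 1 gene called by DESeq2. In limma-voom 0 genes were called in any of these 3 comparisons.

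Levels of different receptors were compared as CPM per kb of merged exons. Htr1a led with 8.92 ± 0.928 CPM per kb over the 16 libraries (SD), and its lowest library, 7.61, lay above the highest of any other receptor, 5.37 CPM per kb for Htr5b. Htr5b (3.99 ± 0.665 CPM per kb) and Htr3a (3.70 ± 0.585 CPM per kb) followed with overlapping ranges. Htr2a came next at 2.67 ± 0.838 CPM per kb, and its place by mean differed between the viruses, which restates the difference on which it was chosen. It averaged 3.39 CPM per kb (range 2.39 to 3.88) in Dnmt3a2 libraries, rank 4 of 10, and 1.96 CPM per kb (range 1.63 to 2.35) in control libraries, rank 6 of 10 behind Htr1b and Htr5a. The control ranges of Htr1b (1.69 to 2.75) and Htr5a (1.69 to 2.52) overlapped that of Htr2a. Htr1b (2.36 ± 0.279 CPM per kb) and Htr5a (2.30 ± 0.271 CPM per kb) were not apart beyond their spread, nor were Htr4 (1.61 ± 0.287 CPM per kb) and Htr7 (1.43 ± 0.213 CPM per kb). Htr2c had 1.02 ± 0.194 CPM per kb and Htr1f 0.713 ± 0.192 CPM per kb. The place of Htr4 rests on the length used, since its exons merge to 4908 bases while its coding transcripts have a median of 1328 bases. By the coding length it had 5.96 CPM per kb, second to Htr1a, and 3 of 10 genes kept their rank.

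**Figure D4:**
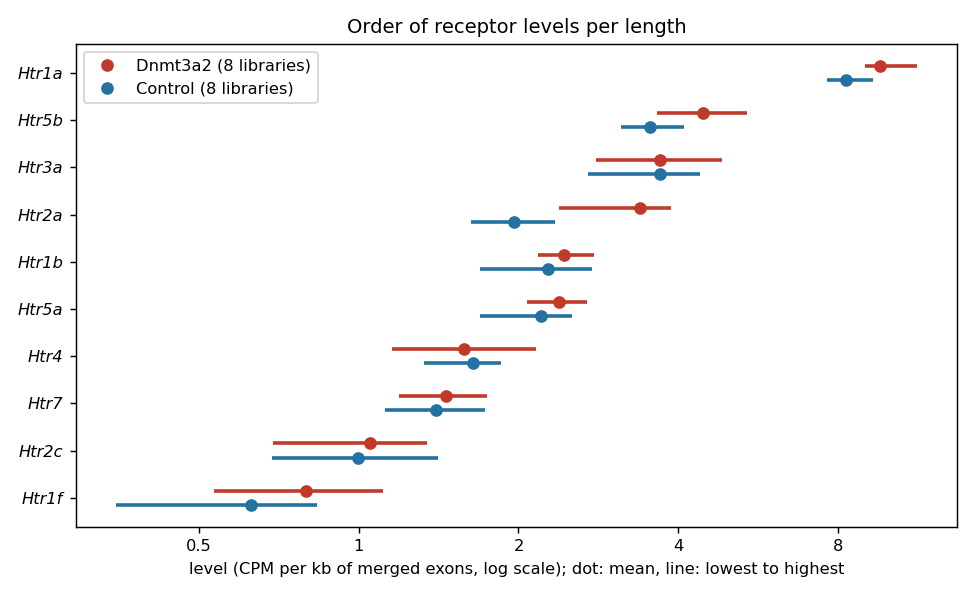
Receptor mRNA level in CPM per kb of merged exons (log horizontal axis), with the mean (dot) and the lowest to highest library (line) over 8 Dnmt3a2 and 8 control libraries. Htr1a lies above all others, and Htr2a is the receptor whose 2 ranges, 2.39 to 3.88 and 1.63 to 2.35 CPM per kb, do not meet.

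The remaining receptor genes were low except for 1. Htr6, Gs-coupled, was at 7.28 to 10.8 CPM over the 16 libraries, with an averaged log2 fold change of -0.00 (SE 0.07, edgeR adjusted p = 0.999). Htr1d did not exceed 0.264 CPM. Htr2b had 12 counts over all 16 libraries and Htr3b, the partner subunit of the 5-HT3A channel, 4 counts in 2 libraries. None of these last 3 passed the filter on low counts.

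The enzymes and transporters of serotonin were measured as well. Of 8 synthesis genes tested, 1 fell averaged over the days and none rose, where 1.43% of all genes were called in either direction. It was Spr, sepiapterin reductase, which makes the tetrahydrobiopterin cofactor of tryptophan and tyrosine hydroxylase. Spr was at 22.5 to 26.7 CPM in Dnmt3a2_1d against 27.2 to 32.2 CPM in Control_1d, and at 23.9 to 26.8 CPM in Dnmt3a2_5d against 27.1 to 29.7 CPM in Control_5d, with no overlap at either day. The groups did not overlap for 3.43% of all genes at 1 day and for 6.29% at 5 days. The averaged log2 fold change of Spr was -0.23 (SE 0.05, edgeR adjusted p = 0.0164), and the call held under 25 of 25 alternative settings. Tph2, the neuronal tryptophan hydroxylase, was scarce, with 0.828 ± 0.275 CPM in Dnmt3a2_1d and 1.19 ± 0.424 CPM in Control_1d, and 0.704 ± 0.301 CPM in Dnmt3a2_5d and 1.19 ± 0.111 CPM in Control_5d (SD, n = 4 each), and did not pass (averaged log2 -0.63, SE 0.23, edgeR adjusted p = 0.228). Ddc, the decarboxylase of the final step, was at 2.10 to 4.13 CPM over the 16 libraries and Qdpr, which recycles the cofactor, at 87.4 to 135 CPM, and neither passed. Of 3 transport genes tested none passed. Slc18a2, the vesicular monoamine transporter, was at 1.46 to 1.998 CPM in Dnmt3a2_1d and 1.41 to 2.77 CPM in Control_1d, and at 1.18 to 1.78 CPM in Dnmt3a2_5d and 1.83 to 2.36 CPM in Control_5d (averaged over the days, edgeR adjusted p = 0.224). Slc29a4, a low-affinity monoamine transporter, was at 69.6 to 97.9 CPM over the 16 libraries. None of 4 breakdown genes tested passed, with Aldh2 at 70.1 to 87.4 CPM, Maoa at 14.7 to 19.99 CPM and Maob at 20.7 to 26.8 CPM. Slc6a4, the serotonin transporter of raphe neurons, did not exceed 0.200 CPM, and Fev, the transcription factor of raphe serotonin neurons, had 5 counts over all libraries. On the 8-gene raphe list Slc6a4, Fev and Gata3 were below 0.1 CPM on average. In no library did Tph2, Slc18a2 and En2 exceed 1.79, 2.77 and 1.03 CPM. The list summed to 876 to 1168 CPM in Dnmt3a2 and 867 to 1154 CPM in control libraries. Nearly all of that sum came from its remaining members, so it is no measure of raphe transcripts.

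Downstream of the receptors, 1 of 18 genes of Gq and phospholipase C signalling rose averaged over the days and none fell, against 1.43% of all genes called. This was Dgkb, a diacylglycerol kinase, which ends the lipid signal that phospholipase C makes. Dgkb was at 144, 154, 141 and 130.4 CPM in Dnmt3a2_1d, against 127, 122, 114 and 108 CPM in Control_1d. At 5 days it was at 134, 186, 164 and 154 CPM in Dnmt3a2_5d, against 129, 145, 117 and 123 CPM in Control_5d. The groups overlapped at 5 days but not at 1 day, where those of 3.43% of all genes did not. The averaged log2 fold change of Dgkb was 0.29 (SE 0.06, edgeR adjusted p = 0.0191), and the call ended without Control_5d replicate 4 (edgeR adjusted p = 0.0525). The list's median was -0.00 against 0.01 for all genes. None of 13 genes of Gi/o signalling and its potassium channels, 15 of Gs signalling, 13 of receptor desensitisation, 11 receptor partners and 9 regulators of receptor RNA editing and transcription passed at either day or averaged, and the medians of their averaged fold changes lay between 0.00 and 0.05 on the log2 scale. The smallest p in each belonged to Gng2, a G protein gamma subunit (averaged log2 -0.14, SE 0.04, edgeR adjusted p = 0.0558), Gnal, the G protein alpha subunit Golf (0.16, SE 0.04, edgeR adjusted p = 0.0506), Rgs14 (0.19, SE 0.07, edgeR adjusted p = 0.182), Mpdz at 1 day (0.17, SE 0.07, edgeR adjusted p = 0.621) and Cc2d1a (0.09, SE 0.04, edgeR adjusted p = 0.291). Of 12 genes known to be induced by 5-HT2A agonists in cortex, none passed. Averaged over the days 10 of 12 lay above 0, where 52.6% of all genes did, and the median of the 12 was 0.05. Homer1, a scaffold of postsynaptic glutamate receptors and the member with the smallest p, had an averaged log2 fold change of 0.17 (SE 0.05, edgeR adjusted p = 0.113).

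Among 14241 genes at 1 CPM or above, the profile over the 16 libraries closest to that of Htr2a was that of Penk, the enkephalin precursor. Likeness was the root-mean-square difference of log2 CPM, each gene centred on its own mean, where Htr2a itself varied by 0.438 about its mean. This measure includes the difference between the viruses on which Htr2a was chosen, so genes with a like difference rank high. The difference was 0.213 for Penk, 0.236 for Fhad1, 0.237 for Ecm2, an extracellular matrix protein whose locus overlaps Cenpp, 0.243 for Cacng6, a calcium channel gamma subunit, and 0.263 for the pseudogene Gm48415. Penk averaged 56.1 CPM in Dnmt3a2_1d and 35.9 CPM in Control_1d, and 61.4 CPM in Dnmt3a2_5d and 40.2 CPM in Control_5d. Among the receptors Htr5a was the closest, ranked 189 of these genes with a difference of 0.35, followed by Htr1f at rank 255, Htr1a at 355, Htr1b at 748 and Htr5b at 989, and Htr4 was the least like Htr2a at 0.516.

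**Figure D5:**
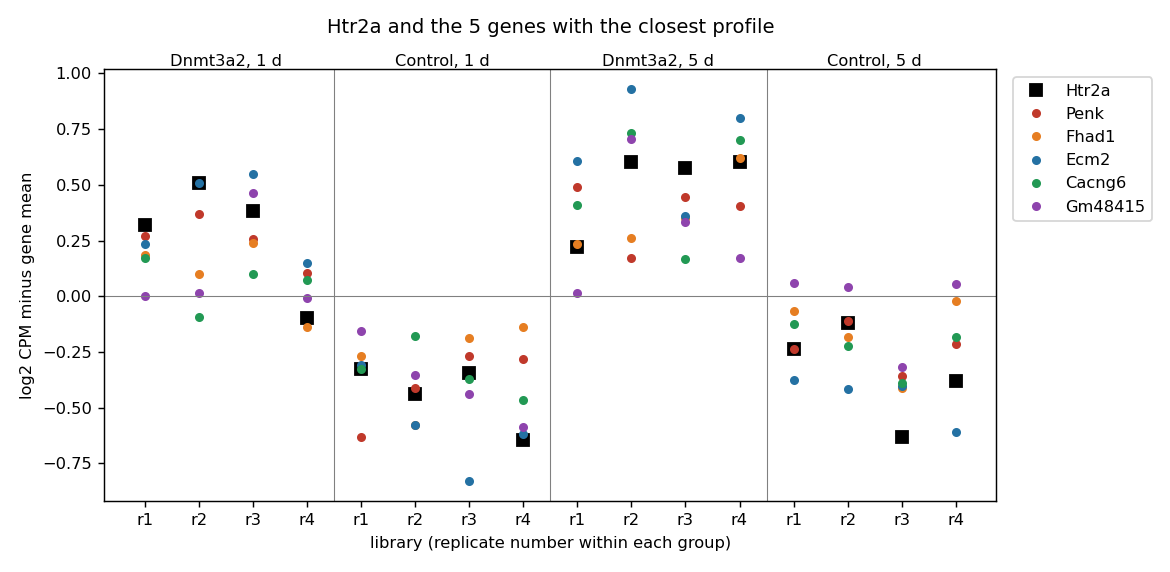
Log2 CPM minus each gene's mean (vertical axis) in each of the 16 libraries for Htr2a (squares) and the 5 genes closest to it (dots), by group and replicate number. All 6 genes lie higher in most Dnmt3a2 than control libraries, and Htr2a falls below its own mean in 1 Dnmt3a2 library, Dnmt3a2_1d replicate 4 at 13.4 CPM.

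Cell types in which receptors are known to be rich were followed by marker lists, since in bulk tissue fewer cells of a type and less RNA per cell cannot be told apart. Beside the counts here and below, 52.6% of all genes lay above 0 averaged over the days and 52.8% at 5 days. Neocortex, claustrum and subiculum, rich in 5-HT2A, gave summed levels of 308 to 397 CPM in Dnmt3a2 and 349 to 438 CPM in control libraries over 13 genes, and 4 of 13 lay above 0 averaged over the days with none called. Fezf2 had their smallest p (averaged log2 -0.40, SE 0.10, edgeR adjusted p = 0.0659). All 9 general interneuron markers together gave 547 to 692 CPM in Dnmt3a2 and 597 to 747 CPM in control libraries, and 2 of 9 lay above 0 averaged over the days. The 11 markers of CCK, VIP and 5-HT3A interneurons gave 864 to 944 CPM in Dnmt3a2 and 827 to 886 CPM in control libraries. Their 5-day sums did not overlap, at 907 to 944 CPM in Dnmt3a2_5d and 835 to 886 CPM in Control_5d. At 5 days 5 of 11 members lay above 0 and none passed. Of mean sums of 924 and 868 CPM in Dnmt3a2_5d and Control_5d, Cck alone made up 472 and 410 CPM. Cck had their smallest p (averaged log2 0.18, SE 0.05, edgeR adjusted p = 0.0535). The part of these cells in the Htr2a difference was not tested.

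Of the hippocampal neuron lists, CA3 and CA2 markers summed to 1467 to 1757 CPM in Dnmt3a2 and 1313 to 1592 CPM in control libraries, with 9 of 12 above 0 averaged over the days. Cpne9 was their 1 called member (averaged log2 0.33, SE 0.06, edgeR adjusted p = 0.00485). Beside the calls in these lists, 1.43% of all genes were called averaged over the days. Dentate granule markers summed to 867 to 1014 CPM in Dnmt3a2 and 831 to 1056 CPM in control libraries, with 4 of 10 above 0 averaged over the days, 1 called higher and 2 lower. Calb1, calbindin, rose (averaged log2 0.37, SE 0.05, edgeR adjusted p = 0.000198), while C1ql2, a synaptic organiser, fell (-0.49, SE 0.06, edgeR adjusted p = 0.000117), as did Dsp (-0.24, SE 0.05, edgeR adjusted p = 0.0315). CA1 markers summed to 1045 to 1187 CPM in Dnmt3a2 and 978 to 1240.0 CPM in control libraries, with 6 of 8 above 0 averaged over the days and a median of 0.05. Their 1 called member, Pou3f1, fell (-0.19, SE 0.05, edgeR adjusted p = 0.0397). The calls of Cpne9, Calb1 and C1ql2 held without any 1 library. Those of Dsp and Pou3f1 ended on leaving out 1 library in 7 and 11 of 16 cases (edgeR adjusted p up to 0.0783 and 0.0992), and that of Pou3f1 also without the interferon-rich libraries (edgeR adjusted p = 0.0572). Medial habenula and thalamus markers summed to 71.3 to 112 CPM in Dnmt3a2 and 77.3 to 100.5 CPM in control libraries, with 6 of 9 above 0 averaged over the days. Choroid plexus markers summed to 135 to 1869 CPM in Dnmt3a2 and 140.0 to 378 CPM in control libraries, with 15 of 15 above 0 averaged over the days and none past the test. Interferon response genes summed to 136 to 388 CPM in Dnmt3a2 and 155 to 340 CPM in control libraries, with 11 of 12 above 0 averaged over the days (median log2 0.46), 12 of 12 at 5 days (median log2 0.60) and none past the test. The median library did not follow this at 5 days, with sums of 170 CPM in Dnmt3a2_5d and 189 CPM in Control_5d. The highest Dnmt3a2_5d library was at 368 CPM. At 1 day the medians were 195 CPM in Dnmt3a2_1d and 179 CPM in Control_1d. The settings without the choroid-rich or the interferon-rich libraries are among those that set the ranges of the Htr2a fold change above. The part of any of these lists in the Htr2a difference was not tested.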

How the data were processed

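RNA was measured by bulk sequencing in 16 libraries, 4 per group. Per the submitters' processing notes, Trim Galore 0.6.4, kallisto 0.4.6, edgeR 3.17 and GRCm38.p6 were used. The authors deposited estimated counts per Ensembl gene, of which 26.2% differed, by any amount, from a whole number, and log2 CPM of 16907 genes, which matched a calculation from the deposited counts. No source used here states the strand setting or how transcripts were summed to genes. Symbols came from the reference annotation, for 55144 of 55385 identifiers.

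Estimated counts were rounded, filtered by group and scaled by TMM. A robust quasi-likelihood model in edgeR 4.0.16 (R 4.3.3) with a term per group was fitted to all 16 libraries. Adjusted p-values are Benjamini-Hochberg over the 16899 genes tested, called below 0.05. DESeq2 1.42.0, limma 3.58.1 and other filters, scalings and left-out libraries were alternatives. The fit was tested on simulated data for Dnmt3a2 against control at 1 day. It recovered 6% of 1.2-fold, 74% of 1.5-fold and 90% of 2-fold changes, 50 genes each, with 10 false calls. A receptor that did not pass is therefore not shown to be unchanged.

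Every receptor is named. Of other lists, called members are named, and where none was called the member with the smallest p could be. The 5 profiles closest to Htr2a are named. The profiles closest to Htr2c are not reported here. Members and lists were chosen with earlier results of these data known. Each library had 28.6 to 30.0 M estimated counts, which sets the precision of scarce receptors.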

Additional observations from a re-analysis of the deposited data

Results flagged for a closer look

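In 40 groups of 4 libraries, 4 held a receptor value set apart from the other 3 by Dixon's criterion, and chance marks about 1 group in 20. Htr2a in Dnmt3a2_5d had a lowest library, replicate 1, at 16.7 CPM, with 21.4 to 21.8 CPM in the others. That library was also rich in choroid plexus and interferon response transcripts, and their part in its Htr2a level was not tested. Htr2c in Dnmt3a2_1d had a lowest library, replicate 4, at 6.45 CPM, with 9.95 to 10.3 CPM in the others. The same library was the lowest Dnmt3a2 library in Htr2a. Htr2c in Control_1d had a highest library, replicate 3, at 13.2 CPM, with 8.29 to 8.73 CPM in the others. Htr1b in Dnmt3a2_1d had a highest library, replicate 4, at 12.1 CPM, with 11.5 to 11.6 CPM in the others, a group whose SD was 0.302 CPM.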

How the results depend on the processing

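The Htr2a fold change kept its direction under all 26 alternatives at each day. The count of receptors called in this paragraph is over all 10, unlike the counts over 9 above. It includes Htr2a, whose choice used these contrasts, so its side of the threshold is no result and nothing is read from the count. At 1 day the count was 1 in the main fit. Of the other 9 receptors 0 were called there, where 0.0888% of all genes were. The count over 10 at 1 day was 0 when fitted with only the groups compared and 0 without the 3 interferon-rich libraries. On leaving out 1 library it was 0 to 1, with 0 without Dnmt3a2_1d replicates 1, 2 or 3 or Control_1d replicates 2, 3 or 4. Averaged over the days the count was 1 without the 2 choroid-rich and without the 3 interferon-rich libraries, and 1 to 3 on leaving out 1 library. With the median coding transcript length 3 of 10 receptors kept their place in the order of levels. Upper-quartile scaling and limma-voom ended the averaged call of Htr5b (adjusted p = 0.0539 and 0.0623). The cause was not tested. With a replicate block the averaged calls of Htr1a and Htr5b held, and the Htr2a log2 fold changes at 1 and 5 days were 0.73 and 0.85. Same-numbered libraries correlated at -0.09 to 0.38, over 0.1 in 8 of 24 pairs, and 6 of 16 libraries correlated best with their own number. These values do not settle whether the numbers mark pairs. The labels do not state it either, so the main fit used no pairing. Depth limits Htr1f most, at 26 to 87 estimated counts per library.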
